A study of Homo sapiens with 15 samples.

Results

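The neurofilament genes NEFL, NEFM, NEFH and INA, the vimentin gene VIM, the nestin gene NES and the simple keratin genes KRT7, KRT8, KRT18 and KRT19 were followed in HT1080 cells, an established human fibrosarcoma line. These 10 genes were picked by symbol from the 60675 genes of the deposited table, and each symbol matched 1 row. RNA sequencing samples of 4 groups were compared, all made from RNA depleted of ribosomal RNA. Wild-type HT1080 cells that had received 1 µM TMP195 for 2 days made up 3 samples. Untreated cells whose own KDAC7 (gene HDAC7) carried the change H709A made up 4 samples, those whose own KDAC4 (gene HDAC4) carried H803A another 4, and those whose KDAC4 carried H976Y the last 4. The series names inactive KDAC4 and KDAC7 in its title and speaks of inactivated or enhanced forms in its design, so H709A and H803A were read as inactive and H976Y as enhanced. Both enzymes belong to class IIa of the lysine deacetylases, corepressors that bind MEF2 transcription factors, and TMP195 is an inhibitor that occupies the catalytic site of this class. Whether a group's samples are separate clones or cultures is not given in the labels, so p-values measure only how far these samples spread, and that spread may be technical. Untreated wild-type cells were not analysed here, so each group could only be set against another variant or the inhibitor.

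Intermediate filaments are rope-like polymers of the cytoskeleton that give cells mechanical strength. Their subunits are made by cell type: neurofilament light (NEFL), medium (NEFM) and heavy (NEFH) chains and alpha-internexin (INA) in neurons, vimentin in mesenchymal cells, nestin in progenitor cells, and keratins in epithelia, where an acidic keratin such as KRT18 or KRT19 always pairs with a basic one such as KRT7 or KRT8. NEFM and NEFH need NEFL or INA as a partner to form filaments, and VIM can assemble alone. A fibrosarcoma line such as HT1080 is built on vimentin, and KRT8 with KRT18 is the pair that turns up most often in cultured cells that are not epithelial. Neuronal genes are held down outside the nervous system by the repressor REST, among others.

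Sequences of 2 genes are shown because they stand at the ends of the range of levels: VIM, the most abundant of the 10, and INA, which had 1 count in 14 libraries. Both lie on the forward strand of chromosome 10, and the 250 bases before each annotated start are printed from the RefSeq table for GRCh38.p14. Windows of 4 of the 10 genes (VIM, INA, NES and KRT8) were found in that table. Capitals mark the GC box, a motif bound by Sp-family factors, searched as GGGCGG and as its reverse complement CCGCCC.
VIM promoter, chr10:17227991-17228240: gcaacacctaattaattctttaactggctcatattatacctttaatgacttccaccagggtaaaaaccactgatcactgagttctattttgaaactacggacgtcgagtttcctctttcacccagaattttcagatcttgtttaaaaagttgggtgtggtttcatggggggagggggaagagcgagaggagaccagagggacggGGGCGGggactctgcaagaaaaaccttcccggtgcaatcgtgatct
INA promoter, chr10:103276888-103277137: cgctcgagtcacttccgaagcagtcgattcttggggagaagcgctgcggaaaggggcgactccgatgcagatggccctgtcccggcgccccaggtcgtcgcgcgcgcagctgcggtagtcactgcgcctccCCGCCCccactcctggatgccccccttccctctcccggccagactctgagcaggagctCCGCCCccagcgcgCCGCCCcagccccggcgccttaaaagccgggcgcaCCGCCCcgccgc
The VIM window held 1 GC box and 8 CpG dinucleotides, and the INA window held 4 GC boxes and 30 CpG. A GC box was present in 42.6% of the 35116 windows of this length in the table, whose median was 11 CpG. The gene with almost no reads therefore had more of both than the most abundant one. These counts describe the letters of 2 windows and say nothing of what binds there.

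The deposited values were expected counts, in which reads that match several transcripts are shared among them. The column of the fourth KDAC4 H803A sample held gene lengths in place of counts, so KDAC4 H803A had 3 libraries and 14 libraries were compared. Total counts ran from 6151417 to 24297525. Levels are given as CPM, counts scaled to a library of 1e+06, where 1 CPM stood for 4.86 to 23.9 counts. Some libraries stood apart from their groups. KDAC4 H803A library 1 and KDAC7 H709A library 4 were the most alike pair of all 14 libraries (chi-square per degree of freedom 2.15, against 227 and 264 between KDAC4 H803A library 1 and the other libraries of its group). KDAC4 H803A library 1 was also closer to KDAC7 H709A libraries 2 and 3 (59.5 and 70.8) than to its own group. KDAC7 H709A library 4 stood at 70.5 and 84.5 from libraries 2 and 3 of its group, which were 15.9 from each other. On the same measure KDAC7 H709A library 1 was closer to KDAC4 H803A libraries 3 and 2 (35.1 and 55.9) than to libraries 2, 3 and 4 of its own group (167, 260 and 300). The table does not show which variant the cells of a library carried, so an exchange of samples between KDAC4 H803A and KDAC7 H709A is possible. It was not tested, and values of both groups are those of the libraries so labelled. The balance between GC-rich and GC-poor genes, as the log2 difference between genes above 56.29% and below 43.05% GC, against the mean library, was 0.35 to 0.53 in TMP195. It was 1.18, -0.49, -0.96 and -1.11 in KDAC7 H709A, -1.09, 1.37 and 1.29 in KDAC4 H803A, and -0.50 to -0.28 in KDAC4 H976Y. Mitochondrial ribosomal RNA took 16.1 to 31.5% of counts in KDAC4 H976Y and at most 0.345% in the other groups. Small nucleolar RNA took 0.722 to 0.913% in KDAC4 H976Y and at most 0.101% in the others, and mitochondrial messenger RNA 0.676 to 1.41% against 2.38 to 14.7%. Every KDAC4 H976Y library had this RNA composition, so in comparisons with KDAC4 H976Y it cannot be told apart from the variant. Main results include KDAC4 H803A library 1 and KDAC7 H709A libraries 1 and 4, and values without these 3 libraries are given beside several members and lists. These 3 were picked by how alike libraries were in these same data, so leaving them out narrows the spread within groups. Without them 31.7 to 64.5% of all genes were called, depending on the comparison, so a call there adds little for a single gene. In bulk RNA, fewer cells with a transcript and less of it per cell cannot be told apart.

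Vimentin dominated the set in every library. To compare genes with each other, CPM was divided by the effective length in kilobases. On that scale VIM made up 84.9 to 94.4% of the sum of the 10 genes, the 4 keratins 5.41 to 14.4% and the 4 neurofilament genes 0.00539 to 0.745%. KRT18 and KRT8 came next after VIM in all 14 libraries. KRT18 averaged 132 ± 17.3 CPM per kilobase in TMP195, 133 ± 26.7 in KDAC7 H709A, 163 ± 19.8 in KDAC4 H803A and 93.1 ± 18.5 in KDAC4 H976Y (SD, n = 3, 4, 3 and 4). KRT18 was above KRT8 on this scale in every TMP195 and KDAC7 H709A library, in 1 of 3 KDAC4 H803A libraries and in 1 of 4 KDAC4 H976Y libraries. KRT7 and NEFL followed in an order that depended on the group: KRT7 was above NEFL in all TMP195 and KDAC4 H976Y libraries, NEFL was above KRT7 in all KDAC7 H709A libraries, and their ranges overlapped in KDAC4 H803A. The effective length of KRT7 in the table was 529 bases, a weighted value over its isoforms, so its place in this order is uncertain. NEFM, NEFH, NES, KRT19 and INA reached at most 2.29 CPM per kilobase in any library.

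**Figure D1:**
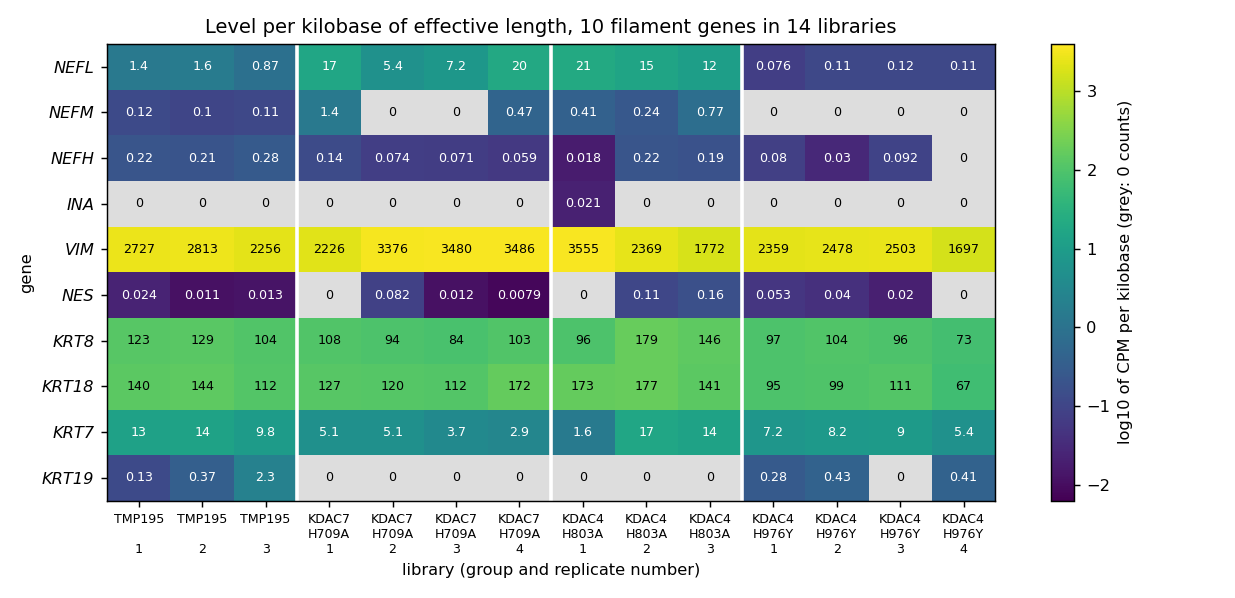
Level of the 10 filament genes in each of the 14 libraries, as CPM per kilobase of effective length (colour on a log10 scale, values printed in the cells, grey for 0 counts), with groups side by side. VIM was the highest row in every library, INA had counts in 1 library, and NEFL reached 21.2 in KDAC4 H803A against at most 0.117 in KDAC4 H976Y.

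Of the 10 genes, 6 (NEFL, NEFM, VIM, KRT7, KRT8 and KRT18) had enough counts to be tested; NEFH, INA, NES and KRT19 did not pass the filter on low counts. The threshold for a call was an adjusted p of 0.05 by edgeR's quasi-likelihood test with Benjamini-Hochberg adjustment over all 17780 genes tested. In TMP195 against KDAC4 H976Y 1 member was called higher and 0 lower, beside 16.5% of all genes (7.96% higher and 8.55% lower). In TMP195 against KDAC7 H709A 0 were called higher and 1 lower, beside 6.29% of all genes (1.99% higher and 4.31% lower). In TMP195 against KDAC4 H803A 0 were called higher and 1 lower, beside 5.34% (1.56% higher and 3.78% lower). In KDAC7 H709A against KDAC4 H976Y 1 was called higher and 0 lower, beside 12.5% (7.28% higher and 5.19% lower). In KDAC4 H803A against KDAC4 H976Y 2 were called higher and 0 lower, beside 15.1% (9.21% higher and 5.85% lower). With 6 genes tested, a count of 1 or 2 was not read as different from these shares. In KDAC7 H709A against KDAC4 H803A edgeR called 0 members and 0% of all genes; 1118 of the 17780 genes had an unadjusted p under 0.05, among them KRT7 and KRT8, and DESeq2 called 0 members. Libraries of the groups did not overlap for 4, 2 and 2 members in TMP195 against KDAC4 H976Y, KDAC7 H709A and KDAC4 H803A, beside 53.8%, 24.3% and 24.3% of all genes. They did not overlap for 3 members each in KDAC7 H709A and KDAC4 H803A against KDAC4 H976Y, beside 20.1% and 23.1%, and for 0 in KDAC7 H709A against KDAC4 H803A, beside 2.01%. NEFL was the member called in 5 of the 6 comparisons, and KRT18 was the other one. When the 3 libraries above were left out together, members called numbered 5, 3, 3, 3, 5 and 5 in the 5 comparisons above, in that order, and in KDAC7 H709A against KDAC4 H803A, beside 53.9%, 45.7%, 47.9%, 31.7%, 64.5% and 60.2% of all genes.

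**Figure D2:**
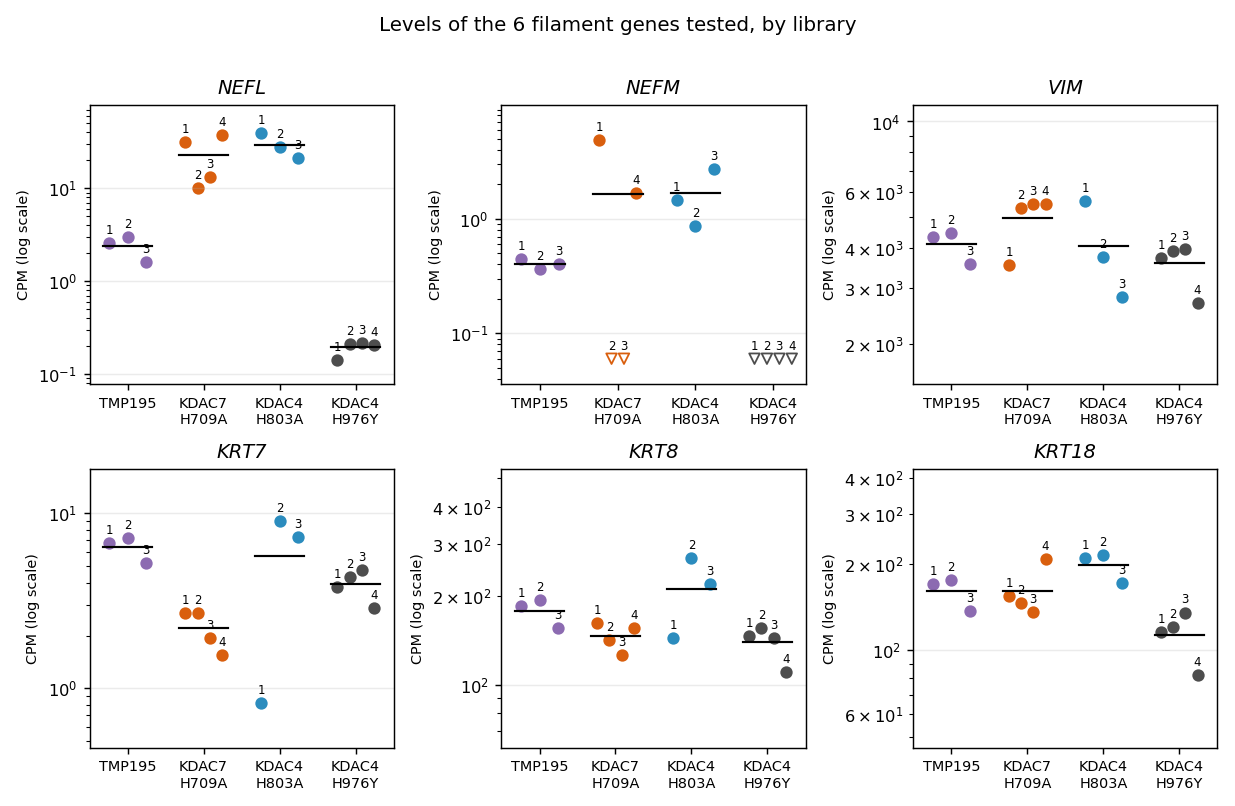
CPM by library (log scale, numbers are replicate numbers, bars are group means) of the 6 filament genes tested, with TMP195, KDAC7 H709A, KDAC4 H803A and KDAC4 H976Y from left to right; open triangles mark libraries with 0 counts. NEFL falls into 3 levels with no overlap between the KDAC variants H709A and H803A together, TMP195, and KDAC4 H976Y, while VIM, KRT8 and KRT18 stay within a narrow range.

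NEFL (ENSG00000277586, chromosome 8, 24950955 to 24957110, reverse strand, GRCh38), the light chain on which neurofilaments are built, was nearly silent in KDAC4 H976Y cells and was present at 3 levels across the groups. It stood at 2.60, 2.99 and 1.60 CPM in the 3 TMP195 libraries and at 31.4, 10.1, 13.4 and 37.1 CPM in the 4 KDAC7 H709A libraries. In KDAC4 H803A it reached 39.2, 28.1 and 21.3 CPM, and in KDAC4 H976Y 0.141, 0.212, 0.216 and 0.206 CPM. The highest KDAC4 H976Y library was below the lowest TMP195 library, and the highest TMP195 library was below the lowest library of either inactive variant. KDAC7 H709A and KDAC4 H803A overlapped. The KDAC4 H976Y values rest on 6 counts in 4 libraries together, a pooled level of 0.196 CPM with an exact 95% Poisson interval of 0.0718 to 0.426 that covers counting error only.

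TMP195 cells lay between the variants in NEFL. Averages were 2.396 ± 0.714 CPM in TMP195 (SD, n = 3) and 0.194 ± 0.0357 in KDAC4 H976Y (SD, n = 4), a log2 fold change of 3.55 ± 0.60 (SE) and an adjusted p of 0.00169 by edgeR's quasi-likelihood test. Against the inactive variants NEFL was lower in TMP195. The log2 fold change was -3.26 ± 0.46 against KDAC7 H709A, whose mean was 23.0 ± 13.3 CPM (SD, n = 4; edgeR adjusted p = 0.000788). It was -3.62 ± 0.48 against KDAC4 H803A, whose mean was 29.6 ± 9.01 CPM (SD, n = 3; edgeR adjusted p = 0.000524). NEFL in wild-type cells given the inhibitor was thus 11.7-fold above KDAC4 H976Y, 9.55-fold below KDAC7 H709A and 12.3-fold below KDAC4 H803A.

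Between the variants, NEFL in KDAC7 H709A was 112-fold above KDAC4 H976Y (6.81 ± 0.56 on the log2 scale, edgeR adjusted p = 1.47e-05) and in KDAC4 H803A 144-fold above it (7.17 ± 0.58, edgeR adjusted p = 2.03e-05). KDAC7 H709A against KDAC4 H803A gave -0.36 ± 0.40 (edgeR adjusted p = 0.661), which does not show that the 2 inactive variants were alike. All 5 calls of NEFL held under the 27 alternative settings tried. Without KDAC4 H803A library 1 and KDAC7 H709A libraries 1 and 4, the libraries left were the lower ones of KDAC7 H709A, at 10.1 and 13.4 CPM, and the log2 fold change of NEFL in KDAC7 H709A against KDAC4 H803A was then -1.06 (edgeR adjusted p = 0.00255), in a setting where 60.2% of all genes were called. Genes around NEFL had smaller shifts as a group: the 62 tested genes within 5 megabases had a median log2 fold change of 0.20 in TMP195 against KDAC4 H976Y, 0.16 in KDAC7 H709A against KDAC4 H976Y and 0.24 in KDAC4 H803A against KDAC4 H976Y. An antisense-strand gene overlaps NEFL, and the strand setting of the counting is not given in the sources used here, so reads of the 2 could not be separated.

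**Figure D3:**
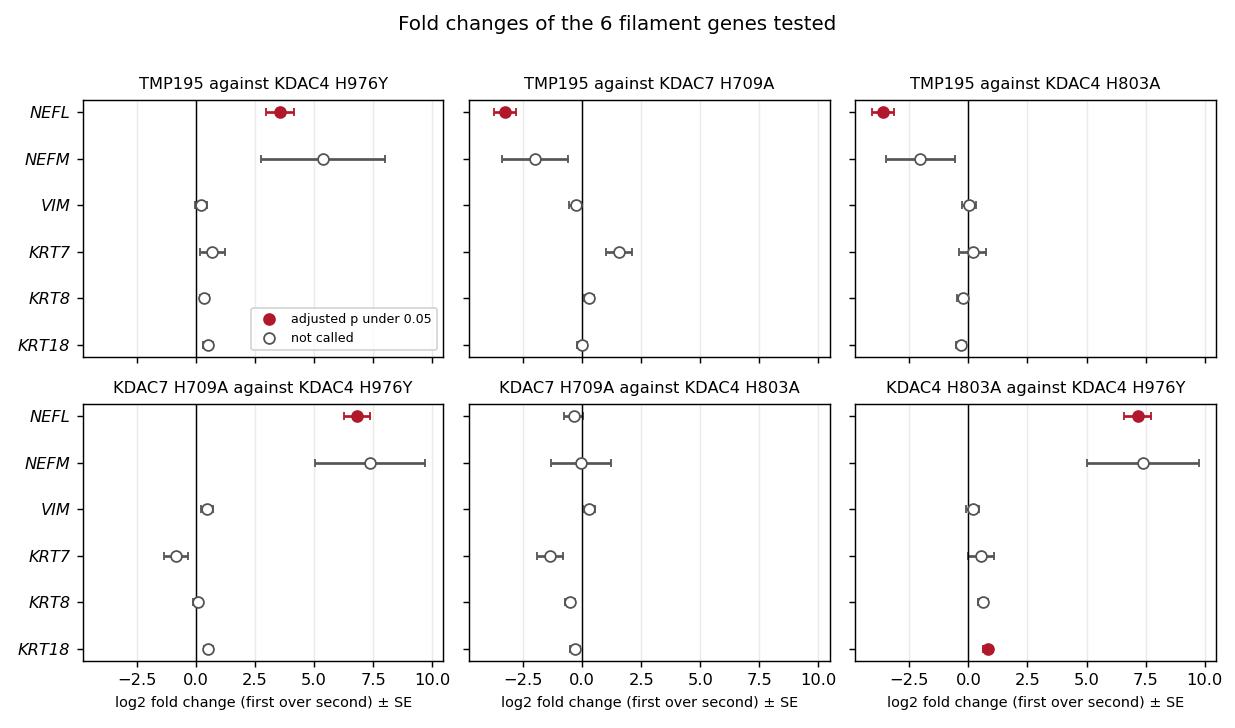
Log2 fold change ± SE (first group over second) of the 6 filament genes tested in each of the 6 comparisons; filled red points have an adjusted p under 0.05 by edgeR's quasi-likelihood test. NEFL is filled in 5 panels and KRT18 in the panel of KDAC4 H803A against KDAC4 H976Y, and NEFM, with no counts in KDAC4 H976Y, has long error bars.

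NEFM (ENSG00000104722, chromosome 8, 24913012 to 24919098, forward strand), the medium chain, lies 31857 bases from NEFL and had far fewer reads. Its counts were 7, 6 and 6 in TMP195 and 51, 0, 0 and 40 in KDAC7 H709A. They were 23, 9 and 25 in KDAC4 H803A and 0 in all 4 KDAC4 H976Y libraries. Reads were thus found in all TMP195 and KDAC4 H803A libraries, in 2 of 4 KDAC7 H709A libraries and in no KDAC4 H976Y library. With 3 counts over the whole group as the limit that 0 counts allow, pooled NEFM was at least 4.11-fold higher in TMP195, at least 15.04-fold higher in KDAC7 H709A and at least 16.5-fold higher in KDAC4 H803A, each relative to KDAC4 H976Y. None of these was called; edgeR's adjusted p was 0.181 for TMP195, 0.0666 for KDAC7 H709A and 0.0612 for KDAC4 H803A, each against KDAC4 H976Y. DESeq2 called it for KDAC7 H709A (adjusted p = 0.00476) and KDAC4 H803A (0.00714). Of the alternative settings that gave a value, DESeq2 included, it was called in 2 of 25 for TMP195, 5 of 23 for KDAC7 H709A and 9 of 25 for KDAC4 H803A. An antisense-strand gene overlaps NEFM too. The 2 KDAC7 H709A libraries with reads, 1 and 4, are among the 3 that stood apart (116 and 214 counts of NEFL, against 0 of NEFM, were found in libraries 2 and 3).

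The other neuronal subunits were at or near the limit of detection. NEFH (ENSG00000100285, chromosome 22), the heavy chain, had 12, 12 and 15 counts in TMP195, 5, 3, 4 and 5 in KDAC7 H709A, 1, 8 and 6 in KDAC4 H803A, and 2, 1, 3 and 0 in KDAC4 H976Y. Its TMP195 libraries, at 0.731 to 1.00 CPM, were above all KDAC7 H709A and KDAC4 H976Y libraries, which reached 0.482 and 0.324 CPM, and overlapped KDAC4 H803A. It was not tested because of its low counts. INA (ENSG00000148798, chromosome 10), which can take the place of NEFL as a partner, had 1 count in KDAC4 H803A library 1 and 0 in the other 13 libraries; 0 counts over a group allowed up to 0.0636 CPM in TMP195, 0.0485 in KDAC7 H709A and 0.0979 in KDAC4 H976Y.

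VIM (ENSG00000026025, chromosome 10, 17228259 to 17237593), the mesenchymal filament, did not pass the test in any comparison. It stood at 4315, 4450 and 3570 CPM in TMP195 and 3523, 5341, 5505 and 5516 CPM in KDAC7 H709A. It stood at 5625, 3749 and 2803 CPM in KDAC4 H803A and 3732, 3921, 3960 and 2685 CPM in KDAC4 H976Y. All 4 groups overlapped one another, and the 3 KDAC4 H803A libraries alone spanned nearly the whole range. The comparison with the lowest p was KDAC7 H709A against KDAC4 H976Y, at 4971 ± 969 and 3574 ± 601 CPM (SD, n = 4 each), a log2 fold change of 0.48 ± 0.25 with an edgeR adjusted p of 0.24. It passed without the 3 libraries that stood apart (0.60, edgeR adjusted p = 0.0314), where 31.7% of all genes were called. It also passed with unscaled totals (0.83, edgeR adjusted p = 0.037), where the median log2 fold change of all genes was 0.44 and 87.8% of calls were higher. Without the 3 libraries, KDAC7 H709A was also called higher than KDAC4 H803A (0.74, edgeR adjusted p = 0.0138), where 60.2% of all genes were called. Reads listed under the antisense gene VIM-AS1, which overlaps VIM, came to at most 0.249% of the pair in any library. NES (ENSG00000132688, chromosome 1), which assembles with vimentin, had 1 or 2 counts in TMP195, 0 to 5 in KDAC7 H709A, 0 to 8 in KDAC4 H803A and 0 to 2 in KDAC4 H976Y and was not tested.

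KRT18 (ENSG00000111057, chromosome 12, 52948871 to 52952901), the acidic keratin of simple epithelia, passed the test in 1 comparison, with more in KDAC4 H803A cells than in those with KDAC4 H976Y. It stood at 170, 176 and 137 CPM in TMP195 and 155, 147, 136 and 209 CPM in KDAC7 H709A. It stood at 211, 216 and 172 CPM in KDAC4 H803A and 116, 121, 136 and 82.2 CPM in KDAC4 H976Y. Every library of the other 3 groups was above the highest KDAC4 H976Y library, although the gap was small for KDAC7 H709A and TMP195. The log2 fold change of KDAC4 H803A (mean 199 ± 24.1 CPM, SD, n = 3) over KDAC4 H976Y (mean 114 ± 22.6 CPM, SD, n = 4) was 0.81 ± 0.21 (edgeR adjusted p = 0.0208). TMP195 over KDAC4 H976Y gave 0.50 ± 0.21 (edgeR adjusted p = 0.109) and KDAC7 H709A over KDAC4 H976Y 0.51 ± 0.19 (edgeR adjusted p = 0.105), neither of which was called. The call was lost without KDAC4 H803A library 2 (adjusted p = 0.0826), KDAC4 H976Y library 1 (0.0613) or KDAC4 H976Y library 2 (0.0572). With an allowance for GC content and length in each library the log2 fold change was 0.59 (adjusted p = 0.215), and with that allowance and without the 3 libraries that stood apart it was 0.10 (adjusted p = 0.685). Without these 3 libraries but with no such allowance, KRT18 was called in TMP195 (0.49, edgeR adjusted p = 0.0183) and KDAC4 H803A (0.75, adjusted p = 0.00212), each against KDAC4 H976Y. In these comparisons 53.9% and 64.5% of all genes were then called.

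KRT8 (ENSG00000170421, chromosome 12, 52897187 to 52949954), the basic partner of KRT18, was not called in any comparison. It stood at 185, 193 and 156 CPM in TMP195 and 162, 141, 126 and 155 CPM in KDAC7 H709A. It stood at 145, 270 and 220 CPM in KDAC4 H803A and 146, 156, 145 and 110 CPM in KDAC4 H976Y. KDAC4 H803A libraries 2 and 3 were the 2 highest of the 14, and library 1 lay among the KDAC4 H976Y values. The log2 fold change of KDAC4 H803A over KDAC4 H976Y was 0.60 ± 0.21 (edgeR adjusted p = 0.0685), and without KDAC4 H803A library 1 it was 0.79 (adjusted p = 0.00617). Without that library KRT8 was also called in KDAC7 H709A against KDAC4 H803A (-0.72, edgeR adjusted p = 0.0189), where 25.7% of all genes were called. Without all 3 libraries that stood apart, KRT8 was called in TMP195 against KDAC4 H976Y (0.35, edgeR adjusted p = 0.0479) and KDAC4 H803A (-0.45, adjusted p = 0.0358), in KDAC7 H709A against KDAC4 H803A (-0.86, adjusted p = 0.00116) and in KDAC4 H803A against KDAC4 H976Y (0.80, adjusted p = 0.000455). In these comparisons 53.9%, 47.9%, 60.2% and 64.5% of all genes were then called, in that order. KRT8 and KRT18 overlap on opposite strands.

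The ratio of KRT8 to KRT18 counts varied within groups as well as between them. It was 1.09, 1.10 and 1.14 in TMP195 and 1.04, 0.962, 0.927 and 0.742 in KDAC7 H709A. It was 0.687, 1.25 and 1.28 in KDAC4 H803A and 1.27, 1.29, 1.06 and 1.34 in KDAC4 H976Y. The 2 lowest values belonged to KDAC4 H803A library 1 and KDAC7 H709A library 4, the pair of libraries that were most alike and that had the 2 lowest balances of GC-rich to GC-poor genes. KDAC7 H709A was the one group with most libraries below 1. The part of GC content in the ratio was not tested.

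**Figure D4:**
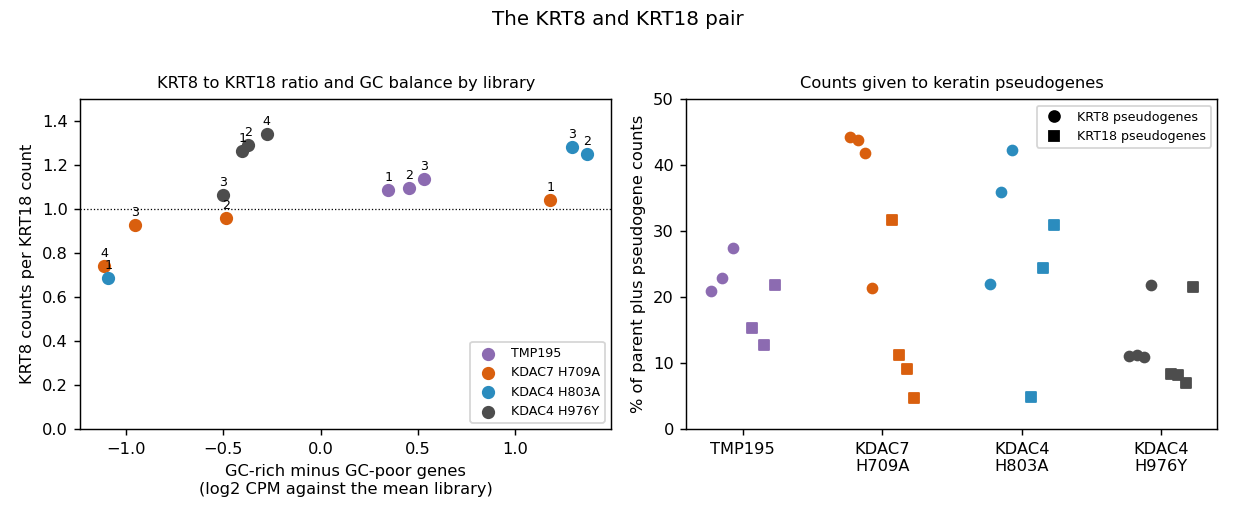
Left, counts of KRT8 per count of KRT18 in each library against the library's balance of GC-rich to GC-poor genes (log2 CPM), coloured by group with replicate numbers; right, percent of counts of each keratin and its pseudogenes together that were given to the pseudogenes (circles KRT8, squares KRT18). The 2 libraries at the left edge, KDAC4 H803A 1 and KDAC7 H709A 4, have the lowest ratios, and pseudogenes took 4.69 to 44.3% of the counts.

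Both keratins have many processed pseudogenes, intronless copies scattered over the genome, and the counting shared reads with them. The 50 pseudogenes of KRT8 in the table took 21.0 to 27.5% of the counts of KRT8 and its copies in TMP195, 21.5 to 44.3% in KDAC7 H709A, 22.0 to 42.4% in KDAC4 H803A and 10.9 to 21.8% in KDAC4 H976Y. The 67 pseudogenes of KRT18 took 12.8 to 21.9% in TMP195, 4.69 to 31.7% in KDAC7 H709A, 4.92 to 30.9% in KDAC4 H803A and 6.95 to 21.6% in KDAC4 H976Y. For KRT8 the range was lowest in KDAC4 H976Y, where it overlapped TMP195 and KDAC7 H709A at its upper end. When pseudogene counts were added to the parents, KRT8 was called in KDAC4 H803A against KDAC4 H976Y (log2 fold change 1.03, edgeR adjusted p = 0.0148). KRT18 was then called in all 3 comparisons against KDAC4 H976Y, at 0.60 for TMP195 (adjusted p = 0.0446), 0.58 for KDAC7 H709A (0.0462) and 0.99 for KDAC4 H803A (0.00485). Levels of both keratins are uncertain to that extent.

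KRT7 (ENSG00000135480, chromosome 12, 52232520 to 52252186), a basic keratin of ducts and glands, was low and uneven. It stood at 6.78, 7.25 and 5.21 CPM in TMP195 and 2.70, 2.69, 1.94 and 1.55 CPM in KDAC7 H709A. It stood at 0.822, 8.995 and 7.33 CPM in KDAC4 H803A and 3.79, 4.35, 4.76 and 2.88 CPM in KDAC4 H976Y. All TMP195 libraries were above all KDAC4 H976Y libraries, which in turn were above all KDAC7 H709A libraries, and KDAC4 H803A covered the whole range. No comparison was called; TMP195 against KDAC7 H709A, at 6.41 ± 1.07 CPM (SD, n = 3) and 2.22 ± 0.570 CPM (SD, n = 4), gave a log2 fold change of 1.54 ± 0.55 (edgeR adjusted p = 0.114). Without KDAC4 H803A library 1, 4 comparisons of KRT7 were called by edgeR: TMP195 against KDAC7 H709A (1.54, adjusted p = 0.0036), KDAC7 H709A against KDAC4 H976Y (-0.86, adjusted p = 0.0427), KDAC7 H709A against KDAC4 H803A (-1.87, adjusted p = 0.00349) and KDAC4 H803A against KDAC4 H976Y (1.02, adjusted p = 0.0195). In these 4 comparisons 14.6%, 18.5%, 25.7% and 45.3% of all genes were then called, in that order. Without all 3 libraries that stood apart, KRT7 was also called in TMP195 against KDAC4 H976Y (0.67, edgeR adjusted p = 0.0228), where 53.9% of all genes were called. KRT7 overlaps KRT86 on the same strand and the pseudogene KRT87P on the other, so part of its reads could not be assigned with certainty. KRT19 (ENSG00000171345, chromosome 17), an acidic keratin of many simple epithelia, had 1, 3 and 17 counts in TMP195, 0 in all KDAC7 H709A and KDAC4 H803A libraries and 1, 2, 0 and 1 in KDAC4 H976Y, and was not tested. Pooled KRT19 was at least 9.18-fold higher in TMP195 than in KDAC7 H709A and at least 5.24-fold higher than in KDAC4 H803A, and 17 of its 21 TMP195 counts came from library 3.

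Other genes of the family and its partners were read from lists, by how many of those tested were called. Filament linkers and desmosome genes, whose products tie filaments to junctions, membranes and the nucleus, numbered 31, of which 23 were tested. In TMP195 against KDAC4 H976Y 5 were higher and 3 lower, beside 7.96% and 8.55% of all genes. In TMP195 against KDAC7 H709A 0 were higher and 2 lower, beside 1.99% and 4.31%, and in TMP195 against KDAC4 H803A 0 higher and 1 lower, beside 1.56% and 3.78%. In KDAC7 H709A against KDAC4 H976Y 7 were higher and 1 lower (median log2 fold change 0.58, against 0.09 over all genes), where 7.28% of all genes were called higher and 5.19% lower. In KDAC4 H803A against KDAC4 H976Y 9 were higher and 0 lower (median 0.74, against 0.09 over all genes), where 9.21% of all genes were called higher. In KDAC7 H709A against KDAC4 H803A none was called. Without the 3 libraries that stood apart, KDAC4 H803A against KDAC4 H976Y had 15 higher and 6 lower of 24 tested, where 64.5% of all genes were called. With unscaled totals it had 14 higher and 0 lower, where 24.5% of all genes were called.

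DSP (ENSG00000096696, chromosome 6), which encodes desmoplakin, the protein that joins intermediate filaments to desmosomes, showed the order of groups seen for NEFL. It stood at 22.9, 21.5 and 19.2 CPM in TMP195 and 37.0, 56.3, 51.7 and 69.9 CPM in KDAC7 H709A. It stood at 61.2, 63.3 and 52.6 CPM in KDAC4 H803A and the 4 KDAC4 H976Y libraries held 8, 13, 11 and 4 counts, a mean of 1.13 ± 0.231 CPM (SD, n = 4). As for NEFL, TMP195 lay between KDAC4 H976Y and the 2 inactive variants with no overlap. The log2 fold changes were 4.19 ± 0.25 in TMP195 against KDAC4 H976Y (edgeR adjusted p = 1.93e-06), -1.34 ± 0.22 against KDAC7 H709A (0.00213) and -1.48 ± 0.23 against KDAC4 H803A (0.00157). KDAC7 H709A and KDAC4 H803A were higher than KDAC4 H976Y by 5.53 ± 0.25 and 5.67 ± 0.26 (edgeR adjusted p = 1.23e-07 each).

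PRKCE, a protein kinase C that phosphorylates filament proteins, averaged 71.1 ± 1.18 CPM in TMP195, 66.8 ± 5.42 in KDAC7 H709A, 75.3 ± 2.23 in KDAC4 H803A and 43.8 ± 2.91 in KDAC4 H976Y (SD, n = 3, 4, 3 and 4). DNAJB6, a chaperone that binds KRT18, averaged 177 ± 2.87, 188 ± 11.1, 197 ± 6.82 and 118 ± 9.24 CPM in the same order. Both were called higher in all 3 comparisons against KDAC4 H976Y, with log2 fold changes of 0.58 to 0.78. SYNE3, which links the nuclear envelope to filaments, stood at 6.78 to 9.41 CPM in TMP195, 0.167 to 1.25 in KDAC7 H709A, 0.316, 38.2 and 34.8 in KDAC4 H803A and 0.108 to 0.617 in KDAC4 H976Y; it was called in TMP195 and KDAC4 H803A against KDAC4 H976Y, although KDAC4 H803A library 1 lay among the KDAC4 H976Y values. Without the 3 libraries that stood apart, SYNE3 gave log2 fold changes of 4.86 for TMP195 and 7.04 for KDAC4 H803A against KDAC4 H976Y (edgeR adjusted p = 1.81e-07 and 2.66e-09). In these comparisons 53.9% and 64.5% of all genes were then called. Plectin (PLEC), the large linker of vimentin, and lamin A/C (LMNA), the filament of the nucleus, were not called in any comparison (lowest edgeR adjusted p 0.282 and 0.499). PLEC ran from 750 to 3962 CPM within KDAC4 H803A alone, lowest in library 1.

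**Figure D5:**
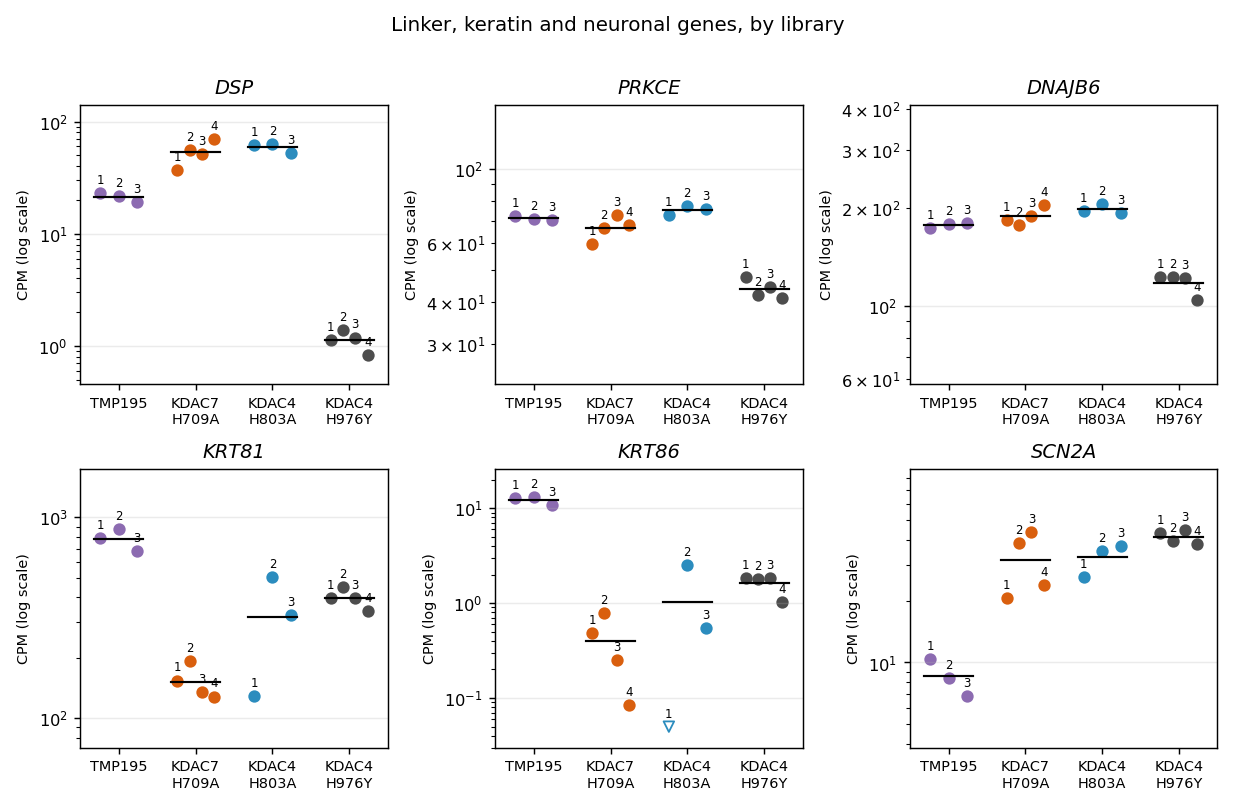
CPM by library (log scale, numbers are replicate numbers, bars are group means, open triangle for 0 counts) of the linkers DSP, PRKCE and DNAJB6, the hair keratins KRT81 and KRT86 and the sodium channel gene SCN2A, with groups in the order TMP195, KDAC7 H709A, KDAC4 H803A and KDAC4 H976Y. DSP shows 3 levels like NEFL, the keratins are highest in TMP195, and SCN2A is lowest in TMP195.

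Of 40 other intermediate filament genes, 14 were tested, 26 stayed under 1 CPM in all libraries and 10 had no count. In TMP195 against KDAC7 H709A 2 were higher and 0 lower, and against KDAC4 H803A 1 was higher and 0 lower, where 1.99% and 1.56% of all genes were called higher. TMP195 against KDAC4 H976Y had 1 higher and 1 lower and KDAC7 H709A against KDAC4 H976Y 0 higher and 2 lower, beside 16.5% and 12.5% of all genes called. The other 2 comparisons had none, beside 15.1% in KDAC4 H803A against KDAC4 H976Y and 0% in KDAC7 H709A against KDAC4 H803A. KRT81, a hair keratin, averaged 780 ± 96.98 CPM in TMP195, 152 ± 28.6 in KDAC7 H709A, 319 ± 187 in KDAC4 H803A and 396 ± 44.9 in KDAC4 H976Y (SD, n = 3, 4, 3 and 4). KRT81 was higher in TMP195 than in KDAC7 H709A (log2 fold change 2.36 ± 0.34, edgeR adjusted p = 0.000842) and lower in KDAC7 H709A than in KDAC4 H976Y (-1.382 ± 0.31, adjusted p = 0.0119). Its close copy KRT86 averaged 12.3 ± 1.198 CPM in TMP195 and at most 1.62 CPM in the other groups, with log2 fold changes of 5.01 ± 0.93 against KDAC7 H709A (edgeR adjusted p = 0.00594), 3.61 ± 0.97 against KDAC4 H803A (0.0461; lost in 12 of 27 settings) and 2.89 ± 0.84 against KDAC4 H976Y (0.0327; lost in 8 of 27). KRT81 and KRT86 are near-identical to each other and lie beside KRT7, so how reads were split among them is uncertain. KRT15 was lower in KDAC7 H709A than in KDAC4 H976Y (-1.44 ± 0.36, adjusted p = 0.0202) and BFSP1 lower in TMP195 than in KDAC4 H976Y (-2.70 ± 0.67, adjusted p = 0.0166). Desmin (DES), KRT5 and KRT14, filaments of muscle and of stratified epithelia, had no more than 2 counts in any library.

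A list of 43 genes held neuronal and REST-repressed genes, and also REST itself and genes of proteins that act with it (RCOR1, SIN3A and EHMT2). Of the 43, 22 were tested, 18 stayed under 1 CPM in all libraries, and DCX, STMN2, SYT4 and UCHL1 had no count. Called genes numbered 1 higher and 1 lower in TMP195 against KDAC4 H976Y, 2 and 1 against KDAC7 H709A and 0 and 2 against KDAC4 H803A. They numbered 2 higher and 1 lower in KDAC7 H709A against KDAC4 H976Y, 3 and 1 in KDAC4 H803A against KDAC4 H976Y, and none in KDAC7 H709A against KDAC4 H803A. Of all genes tested, 16.5%, 6.29% and 5.34% were called in TMP195 against KDAC4 H976Y, KDAC7 H709A and KDAC4 H803A, and 12.5% and 15.1% in KDAC7 H709A and KDAC4 H803A against KDAC4 H976Y (the difference between the list and all genes was not tested). Without the 3 libraries that stood apart, 9 genes of the list were higher and 4 lower in TMP195 against KDAC4 H976Y, where 53.9% of all genes were called. The summed level of the list, with REST and the genes of its partners included, was 619 to 665 CPM in TMP195, 589 to 685 in KDAC7 H709A, 542 to 641 in KDAC4 H803A and 566 to 716 in KDAC4 H976Y, with all 4 ranges overlapping. This sum is therefore not a level of neuronal genes alone. A smaller set of 10 neuronal markers, SNAP25 the highest of them, summed to far less. It reached 7.19 to 8.88 CPM in TMP195, 5.72 to 12.3 in KDAC7 H709A, 5.91 to 13.4 in KDAC4 H803A and 8.63 to 9.73 in KDAC4 H976Y. SCN2A, a voltage-gated sodium channel, was lower in TMP195 (8.54 ± 1.77 CPM) than in KDAC7 H709A (31.8 ± 11.2), KDAC4 H803A (32.8 ± 5.77) and KDAC4 H976Y (41.4 ± 2.99; SD, n = 3, 4, 3 and 4), with log2 fold changes of -1.89 ± 0.28, -1.94 ± 0.29 and -2.28 ± 0.28 (edgeR adjusted p = 0.000977, 0.00116 and 0.000214). NRXN3, a synaptic adhesion gene, was higher in both inactive variants than in KDAC4 H976Y (KDAC7 H709A and KDAC4 H803A at 2.73 ± 0.47 and 2.81 ± 0.49, edgeR adjusted p = 0.00235 and 0.00294). SCN3B was higher in TMP195 than in KDAC4 H976Y (2.14 ± 0.45, adjusted p = 0.00657), and CALB1 was higher in KDAC4 H803A relative to KDAC4 H976Y (2.84 ± 0.74, adjusted p = 0.0221). REST itself was not called in any comparison (lowest edgeR adjusted p 0.108). It stood at 45.5 to 53.1 CPM in TMP195, 52.9 to 130 in KDAC7 H709A, 42.6 to 124 in KDAC4 H803A and 77.5 to 98.1 in KDAC4 H976Y.

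The epithelial adhesion genes CDH1 and EPCAM were nearly without reads in cells that had KRT8 and KRT18. CDH1 had 2 counts and EPCAM 4 in all 14 libraries together, and 21 of 33 epithelial genes stayed under 1 CPM in all of them. Of 11 tested, 3 were higher and 0 lower in KDAC7 H709A against KDAC4 H976Y, beside 7.28% higher and 5.19% lower of all genes. In KDAC4 H803A against KDAC4 H976Y 3 were higher and 0 lower, beside 9.21% and 5.85%. The difference between this list and all genes was not tested. In KDAC7 H709A they were the transcription factor genes KLF5 (1.63 ± 0.41, edgeR adjusted p = 0.0201), GATA3 (1.25 ± 0.33, 0.026) and CEBPA (2.28 ± 0.66, 0.037). In KDAC4 H803A they were KLF5 (1.73 ± 0.43, edgeR adjusted p = 0.0193), GATA3 (1.25 ± 0.35, 0.0317) and CEBPA (2.49 ± 0.69, 0.03). The calls of GATA3 and CEBPA were lost in 9 to 14 of the 27 alternative settings. TMP195 against KDAC4 H976Y had 1 higher, the splicing factor gene ESRP2 (1.79 ± 0.50, edgeR adjusted p = 0.0276), and 0 lower, beside 7.96% and 8.55% of all genes. TMP195 had 0 higher and 1 lower against KDAC7 H709A and none against KDAC4 H803A, where 6.29% and 5.34% of all genes were called. Without the 3 libraries that stood apart, 10 were tested, with 7 higher and 1 lower in TMP195, 2 and 0 in KDAC7 H709A and 6 and 0 in KDAC4 H803A, each against KDAC4 H976Y. In that setting 53.9%, 31.7% and 64.5% of all genes were called. The list summed to 910 to 978 CPM in TMP195, 544 to 1268 in KDAC7 H709A, 628 to 1278 in KDAC4 H803A and 527 to 700 in KDAC4 H976Y.

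Mesenchymal genes were called in both directions, and the list summed to 3033 to 3767 CPM in TMP195, 2427 to 4023 in KDAC7 H709A, 1989 to 3932 in KDAC4 H803A and 4082 to 5730 in KDAC4 H976Y. Of 32 genes 24 were tested, with 5 higher and 3 lower in TMP195, 3 and 4 in KDAC7 H709A and 3 and 6 in KDAC4 H803A, each against KDAC4 H976Y, where 16.5%, 12.5% and 15.1% of all genes were called. TMP195 had 1 higher and 0 lower against either inactive variant, beside 6.29% of all genes against KDAC7 H709A and 5.34% against KDAC4 H803A. Without the 3 libraries that stood apart, the counts against KDAC4 H976Y were 7 and 7 in TMP195, 4 and 7 in KDAC7 H709A and 8 and 13 in KDAC4 H803A, where 53.9%, 31.7% and 64.5% of all genes were called. CDH11, a mesenchymal cadherin, stood at 34.7 to 44.1 CPM in TMP195, 25.9 to 107 in KDAC7 H709A and 10.7 to 109 in KDAC4 H803A, against at most 0.141 in KDAC4 H976Y, and was called in all 3 comparisons. VCAN, the matrix proteoglycan versican, went the other way, at 42.0 to 49.5 CPM in TMP195, 2.60 to 39.0 in KDAC7 H709A and 5.88 to 12.7 in KDAC4 H803A, against 209 to 322 in KDAC4 H976Y, and was also called in all 3. TGFBI, a secreted matrix protein gene, was lower, with log2 fold changes of -1.49 ± 0.42, -2.95 ± 0.41 and -1.997 ± 0.43 in TMP195, KDAC7 H709A and KDAC4 H803A against KDAC4 H976Y (edgeR adjusted p = 0.0295, 0.000601 and 0.00967). COL1A2, a collagen I chain, had 1.28 to 1.90 CPM in TMP195, 0 counts in KDAC7 H709A, 1 count in KDAC4 H803A and 2.53 to 3.08 CPM in KDAC4 H976Y. A list drawn up for regulators of vimentin and keratin genes, which also held NEUROD1 and NEUROG1, had 28 genes, of which 24 were tested. Of these, 7 were higher and 1 lower in TMP195, 7 and 0 in KDAC7 H709A and 6 and 0 in KDAC4 H803A, each against KDAC4 H976Y, where 7.96%, 7.28% and 9.21% of all genes were called higher. KLF4 was higher by 4.11 ± 0.53, 4.89 ± 0.52 and 4.36 ± 0.54, where the 4 KDAC4 H976Y libraries held 6 counts in all. EGR1 was higher by 3.62 to 4.96 in the same 3 comparisons. SRF was higher by 0.84 to 0.89 there, but with GC and length offsets its log2 fold changes were 0.51 for TMP195, 0.78 for KDAC7 H709A and 0.40 for KDAC4 H803A against KDAC4 H976Y, and none was called (edgeR adjusted p = 0.324, 0.12 and 0.43). With these offsets and without the 3 libraries that stood apart, SRF in KDAC4 H803A against KDAC4 H976Y changed sign (-0.15, edgeR adjusted p = 0.508). In that setting it was called higher in TMP195 (0.50, edgeR adjusted p = 0.0212) and KDAC7 H709A (0.91, adjusted p = 0.00175) against KDAC4 H976Y, where 49.1% and 32.2% of all genes were called. SOX9 averaged near 107 CPM in both TMP195 and KDAC4 H976Y, and was lower in TMP195 than in KDAC7 H709A (-1.41 ± 0.22, adjusted p = 0.00187) and KDAC4 H803A (-1.21 ± 0.23, adjusted p = 0.00809).

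Few genes of the lists for other cell types could be tested. Of all genes, 16.5%, 12.5% and 15.1% were called in TMP195, KDAC7 H709A and KDAC4 H803A against KDAC4 H976Y, and 6.29% in TMP195 against KDAC7 H709A. Of 9 endothelial genes 4 were tested, with 0 higher and 1 lower in TMP195 against KDAC4 H976Y and the same counts against KDAC7 H709A. Of 9 blood genes 1 was tested, LCP1, which was higher in TMP195, KDAC7 H709A and KDAC4 H803A than in KDAC4 H976Y. Of 9 muscle genes 2 were tested, with 0 higher and 1 lower in TMP195 against KDAC4 H976Y. Of 10 glial and melanocyte genes 5 were tested and none was called in the 6 comparisons. PTPRC, HBB, MYOD1, MYOG, S100B and AQP4, which define blood, muscle and glia, had no count. The blood list summed to 112 to 143 CPM in TMP195, 68.2 to 260 in KDAC7 H709A, 141 to 164 in KDAC4 H803A and 33.9 to 57.2 in KDAC4 H976Y, and 8 of its 9 genes stayed under 1 CPM. The endothelial list summed to 94.8 to 105 CPM in TMP195, 80.4 to 156 in KDAC7 H709A, 112 to 134 in KDAC4 H803A and 68.5 to 90.6 in KDAC4 H976Y. Muscle genes summed to at most 50.7 CPM and glial and melanocyte genes to at most 23.3 CPM in any library. The part of other cell types in the results above was not tested.

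Across the 14 libraries, the genes whose log2 CPM was most like that of NEFL were ZNF462 (r = 0.976), FRMD4A (0.975) and ARHGEF28 (0.971). For NEFM they were GRID1 (0.974), HDAC7 (0.973) and ACSS1 (0.953), and for VIM NFKB1 (0.979), ILK (0.972) and MANBAL (0.968). For KRT7 they were METRNL (0.954), B4GALNT1 (0.94) and LRP4 (0.937), for KRT8 PDLIM2 (0.933), TEAD4 (0.929) and ADCY9 (0.911), and for KRT18 HOXB9 (0.935), HNRNPM (0.935) and RNF220 (0.93). Within the set the strongest were NEFL with KRT18 (0.786) and NEFL with NEFM (0.75), KRT8 with KRT18 reached 0.67, and VIM with KRT7 was -0.56. These are Pearson correlations over libraries that share groups, depth and GC balance, given as a description.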

How the data were processed

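RNA depleted of ribosomal RNA from HT1080 cells was sequenced in 15 samples. A single table was deposited by the authors, with an expected count for each gene and no scaling between libraries. Per the submitters' processing notes, the tools were RSEM 1.3.3, Bowtie2 2.4.5, DESeq2 1.38.2 and Trimmomatic 0.39, with the GRCh38 genome; no source used here gives their settings or the strand.

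The column headed for the fourth KDAC4 H803A sample was left out because it held effective gene lengths in bases, which were used for CPM per kilobase: 7363 of 7608 single-transcript genes stood at the GENCODE release 29 length minus a constant. The other 14 columns were rounded to whole counts (26.35% of values were not whole). Genes were filtered with filterByExpr (at least 10 counts, 15 in all), scaled by TMM and tested in 1 fit of the 14 libraries with edgeR 4.0.16 (limma 3.58.1, R 4.3.3), by the quasi-likelihood test of 6 pairwise contrasts with Benjamini-Hochberg adjustment over 17780 genes. SE was taken as |log2 fold change| over sqrt(F). The code was tested on simulated data. Total counts of 6151417 to 24297525 set the precision, and intervals and the limit of 3 counts cover counting error only. Alternatives were other scalings, filters, DESeq2 1.42.0, a GC and length offset, a replicate block, each library left out and 3 libraries left out together, these picked by likeness in the same data. Keratin pseudogene counts added to the parents were a further alternative, chosen after seeing the data. Of each list, the genes named were at most 4 of those called, in order of their smallest adjusted p over the 6 comparisons; REST, KRT5, KRT14, DES, LMNA, CDH1, EPCAM and PLEC were named whatever their values. The genes followed and the lists were chosen with earlier results of these data known. Correlations are Pearson's r of log2 CPM.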

Additional observations from a re-analysis of the deposited data

Results flagged for a closer look

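In 3 of the 20 sets of 4 libraries examined, 1 library lay far from the other 3 by Dixon's criterion. Chance meets it in about 1 of 20 separate sets of normally distributed values. That rate need not hold for low counts, such as those of NEFL and NES, or for sets that share genes. NEFL was at 0.1405 CPM in KDAC4 H976Y library 1, below the other libraries of its group. Its counts were 1, 2, 2 and 1 in libraries 1 to 4, too few to tell this from counting error. VIM was at 3523 CPM in KDAC7 H709A library 1, against 5341 to 5516 CPM in the other 3 libraries. NES was at 0.4331 CPM in KDAC7 H709A library 2, which had 5 counts where the other 3 libraries had 0 or 1.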

How the results depend on the processing

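NEFL kept its 5 calls under all 27 alternatives, and KRT18 lost its call in KDAC4 H803A against KDAC4 H976Y in 8. Members called numbered as follows where the count moved by over 1.5 times. With unscaled totals, TMP195, KDAC7 H709A and KDAC4 H803A against KDAC4 H976Y gave 3, 4 and 4; with DESeq2 the last pair gave 3 and 4. Left out together, KDAC4 H803A library 1 and KDAC7 H709A libraries 1 and 4 gave 5, 3 and 5 for these comparisons, 3 and 3 for TMP195 against KDAC7 H709A and KDAC4 H803A, and 5 for KDAC7 H709A against KDAC4 H803A. With the GC and length offset added, counts were 3 for TMP195 and 2 for KDAC7 H709A against KDAC4 H976Y, 4 and 2 for TMP195 against KDAC7 H709A and KDAC4 H803A, and 4 for KDAC7 H709A against KDAC4 H803A. The offset alone gave 1 for KDAC4 H803A against KDAC4 H976Y. Fits of only the groups compared gave 4 for TMP195 against KDAC4 H976Y and 2 for TMP195 against KDAC7 H709A. No filter gave 2 for KDAC7 H709A against KDAC4 H976Y, and added pseudogene counts gave 2 for TMP195 and 2 for KDAC7 H709A against KDAC4 H976Y. Calls over all genes moved as well. With unscaled totals they were 27.9%, 20.3% and 24.5% in TMP195, KDAC7 H709A and KDAC4 H803A against KDAC4 H976Y, and with DESeq2 19.2% and 24.7% in the last pair. In TMP195 against KDAC4 H976Y they were 58.8% in the fit of only these groups. The cause of these moves was not tested. Of 68 calls of named list genes, 36 held in all 27 settings, 19 were lost in 1 to 5 and 13 in more: those of CEBPA and GATA3 in both inactive variants, KRT86 in TMP195 against KDAC4 H803A and KDAC4 H976Y, CALB1 in KDAC4 H803A, and BFSP1, ESRP2, TGFBI, TNNT1 and VCAN in TMP195, each against KDAC4 H976Y, and SCN3B in TMP195 against KDAC7 H709A.

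With each library left out in turn, counts ran from 1 to 1 for TMP195 against KDAC4 H976Y and against KDAC4 H803A, 1 to 2 for TMP195 against KDAC7 H709A, 1 to 2 for KDAC7 H709A against KDAC4 H976Y, 0 to 2 for KDAC7 H709A against KDAC4 H803A and 1 to 5 for KDAC4 H803A against KDAC4 H976Y. The highest of the last was without KDAC4 H803A library 1, where 45.3% of all genes were called. The lowest was without KDAC4 H803A library 2 or KDAC4 H976Y library 1 or 2, where 6.85%, 7.37% and 7.04% were called. The 2 members in KDAC7 H709A against KDAC4 H803A were called without KDAC4 H803A library 1, where 25.7% of all genes were called.

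Libraries with the same replicate number were not more alike than others: 5 of 19 same-numbered pairs had deviations correlated above 0.1, against 24 of 54 others. An exchange of samples would have mixed the numbers too, so this cannot show that the samples were unpaired. With the replicate block, KDAC4 H803A against KDAC4 H976Y had 1 member called, alone or with the GC offset, and all genes called fell to 1556 for TMP195, 1322 for KDAC7 H709A and 1230 for KDAC4 H803A against KDAC4 H976Y, beside 2936, 2218 and 2679 without it. The block left 5 filament linkers higher and 0 lower in KDAC4 H803A against KDAC4 H976Y, beside 9 and 0.

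Unscaled totals moved the median log2 fold change of all genes against KDAC4 H976Y to 0.49 for TMP195, 0.44 for KDAC7 H709A and 0.43 for KDAC4 H803A, and the percent of calls in the higher direction to 83.1%, 87.8% and 88.3%, beside 48.2%, 58.4% and 61.1%. Low counts limit NEFM, NEFH, INA, NES and KRT19, and the keratins depend on reads shared with pseudogenes. Over all genes, calls in TMP195, KDAC7 H709A and KDAC4 H803A against KDAC4 H976Y numbered 4968, 3613 and 4359 with unscaled totals, 4493, 3394 and 4377 with DESeq2, 9894, 5828 and 11848 without the 3 libraries together, and 9018, 5904 and 10408 with the offset added. Calls in TMP195 against KDAC7 H709A and KDAC4 H803A numbered 8390 and 8788 without the 3 libraries, 5231 and 7954 with the offset added, 2484 and 1936 with DESeq2, and 453 and 563 with the block, beside 1119 and 949. Calls in KDAC7 H709A against KDAC4 H803A numbered 11043 and 8834 in the first 2 of these settings, 79 with DESeq2, 14 with no filter and 0 in the main setting. Fits of only the groups compared gave 366 for TMP195 against KDAC4 H803A, and against KDAC4 H976Y 9576 for TMP195 and 1671 for KDAC4 H803A; the GC offset alone gave 3397 for KDAC7 H709A against KDAC4 H976Y. With each library left out in turn, these whole-genome counts ran from 1312 to 5080 for TMP195, 1215 to 3441 for KDAC7 H709A and 1129 to 8431 for KDAC4 H803A against KDAC4 H976Y, from 422 to 2760 and 436 to 2700 for TMP195 against KDAC7 H709A and KDAC4 H803A, and from 0 to 4792 between the inactive variants.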
